A study of Mus musculus with 2 samples.

Results

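Mrc1 and 8 other genes of scavenging macrophages, Msr1, Cd163, Marco, Stab1, Folr2, Lyve1, Cbr2 and Cd36, were measured in the immune cells of a mouse B78ChOVA melanoma, a transplantable line that carries mCherry and ovalbumin. These 9 genes are a fixed list of 31055 genes in the matrix, and they were described across marker-gated macrophages, monocytes and dendritic cells (DCs). The study took immune cells from skin tumours of the B78ChOVA melanoma line, injected under the skin of the flank in 50 µl with Matrigel and harvested after 16 days. Live tissue was cut into sections of about 160 µm, regions were marked with DNA barcodes by the ZipSeq method, and sorted cells were encapsulated on the 10x Genomics platform. The data are 2 libraries of the same cells, 1 of gene expression and 1 of spatial barcode oligonucleotides (ZC1, ZC2, ZC3). There is 1 group, with no treatment and no host genotype given, and neither the number of pooled tumours, the sort gate nor the region behind each spatial barcode is stated. The deposited matrix is tagged CD206R, where CD206 is the protein name of Mrc1, and lists the reporter mVenus. The labels explain neither the tag nor mVenus, so whether the Mrc1 locus of the host was altered is not known here. With 1 library there is no replicate spread and no test, so each value is given with a 95% interval that covers counting error only. Ratios between sets of cells are read against a fold of 1.5 in either direction.

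Macrophages clear dead cells, modified lipoproteins, glycoproteins and haemoglobin through endocytic receptors that differ in their ligands. Mrc1 encodes the mannose receptor (CD206), a lectin that takes up mannosylated glycoproteins and collagen fragments. Msr1 and Marco encode class A scavenger receptors for modified lipoproteins and bacterial surfaces, Cd36 a class B receptor for oxidised lipoproteins and long-chain fatty acids, and Stab1 the scavenger receptor stabilin-1. Cd163 takes up haemoglobin-haptoglobin complexes, Lyve1 binds hyaluronan and Folr2 is folate receptor beta. Cbr2 is no receptor but a carbonyl reductase that is used beside Folr2 and Lyve1 as a marker of tissue-resident macrophages. Mrc1 is widely used to mark alternatively activated macrophages in tumours, and in several mouse tissues Lyve1, Folr2 and Cbr2 mark resident macrophages near vessels.

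On the mm10 (GRCm38) assembly, with GENCODE vM21 annotation, Mrc1 (ENSMUSG00000026712) lies on chromosome 2 from 14229392 to 14332057 on the plus strand. Msr1 (ENSMUSG00000025044) lies on chromosome 8 from 39581685 to 39642673 and Marco (ENSMUSG00000026390) on chromosome 1 from 120474538 to 120505024. Cd36 (ENSMUSG00000002944) lies on chromosome 5 from 17781690 to 17888801 and Stab1 (ENSMUSG00000042286) on chromosome 14 from 31139013 to 31168641. Cd163 (ENSMUSG00000008845) lies on chromosome 6 from 124304656 to 124330527 on the plus strand. Folr2 (ENSMUSG00000032725) spans 101839988 to 101857194 and Lyve1 (ENSMUSG00000030787) spans 110850607 to 110863239, both on chromosome 7. Cbr2 (ENSMUSG00000025150) lies on chromosome 11 from 120729489 to 120732114. All but Mrc1 and Cd163 are on the minus strand.

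The promoters of Mrc1, Folr2 and Cbr2 are shown because these 3 genes were all highest in the same cluster of macrophages, as described below. Each is the RefSeq window on GRCm38.p6 of 250 bases before to 50 bases after a start site, printed 5′ to 3′ on the strand of the gene, with capitals for 2 searched cores. These cores are TGCTGA (reverse TCAGCA), from the half-site of MAF factors, and GAGGAA (reverse TTCCTC), from the site of PU.1, searched on both strands, and no match overlapped another core. Folr2 has 2 annotated start sites.
Mrc1, chr2:14229164-14229463: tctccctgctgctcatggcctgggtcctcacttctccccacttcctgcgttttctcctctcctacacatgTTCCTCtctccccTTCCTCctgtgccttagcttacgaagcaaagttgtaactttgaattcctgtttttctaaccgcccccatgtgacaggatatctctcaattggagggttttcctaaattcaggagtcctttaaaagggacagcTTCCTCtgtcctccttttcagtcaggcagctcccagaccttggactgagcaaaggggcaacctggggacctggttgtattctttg
Folr2 upstream start, chr7:101857141-101857440: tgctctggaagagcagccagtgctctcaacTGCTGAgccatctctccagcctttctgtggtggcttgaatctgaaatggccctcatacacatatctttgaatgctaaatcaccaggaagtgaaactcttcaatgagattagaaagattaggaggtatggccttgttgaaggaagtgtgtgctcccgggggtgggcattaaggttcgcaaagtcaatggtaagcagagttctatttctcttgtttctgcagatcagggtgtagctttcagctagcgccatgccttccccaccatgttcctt
Folr2 downstream start, chr7:101845282-101845581: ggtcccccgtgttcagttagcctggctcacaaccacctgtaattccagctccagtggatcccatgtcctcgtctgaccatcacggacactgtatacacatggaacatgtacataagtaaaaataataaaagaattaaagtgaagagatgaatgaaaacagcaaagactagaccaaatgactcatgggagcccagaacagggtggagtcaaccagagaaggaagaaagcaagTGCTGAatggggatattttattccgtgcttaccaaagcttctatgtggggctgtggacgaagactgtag
Cbr2, chr11:120731972-120732271: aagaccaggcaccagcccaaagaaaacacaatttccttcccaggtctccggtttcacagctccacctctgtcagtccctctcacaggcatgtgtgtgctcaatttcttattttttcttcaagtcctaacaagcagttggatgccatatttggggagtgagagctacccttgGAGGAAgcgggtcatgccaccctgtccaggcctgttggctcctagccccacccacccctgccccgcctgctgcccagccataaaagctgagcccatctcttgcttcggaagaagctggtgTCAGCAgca
The MAF core was in 5 of the 8 promoters found for 7 members, those of Cbr2, Cd36 and Stab1 and both of Folr2, and in 6401 of all 32851 promoters (19.5%). The PU.1 core was in 4 of the 8, those of Cbr2, Marco, Stab1 and Mrc1, where it occurred 3 times, and in 9289 of all promoters (28.3%). A match describes letters in these windows only.

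After filtering, 4236 cells remained, with 1027 to 215512 gene UMIs each (median 23132), and all 4236 barcodes also carried spatial barcode UMIs, at a median of 1552.5. Macrophages were cells with at least 5000 CPM (UMIs of a gene per 1000000 UMIs) summed over C1qa, C1qb and C1qc. They numbered 2411, or 56.9% of the cells, with 44 of them at 5000 to 6000 CPM and 54 barcodes just outside the gate at 4000 to 5000 CPM. All 8 macrophage markers had UMIs in them. Ly6c2 split them into 183 positive and 2228 negative cells. Outside the gate stood 459 Ly6c2-positive monocytes, 38 nonclassical monocytes, 68 type 2 conventional DCs (cDC2), 35 type 1 conventional DCs (cDC1), 42 mature DCs, 12 plasmacytoid DCs, and 37 cells with both Ly6c2 and Cd209a. Another 221 barcodes carried both CD3 and C1q genes, as doublets would, and were left out of every set. A further 264 cells, 6.23% of the total, met no gate, at a median of 15708.5 UMIs. Median depth was 29196 UMIs in macrophages, 11143 in monocytes, 7058.5 in nonclassical monocytes and 19926.5 in cDC2, so shares of cells with a UMI are given after thinning each cell to a fixed number of UMIs. T cells (535, median 6829 UMIs) and 68497 barcodes with 10 to 100 UMIs served to show the level of free RNA.

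Macrophages held most of the UMIs of every member but Cd163, of whose 21 UMIs they held 38.1%. Their share of all UMIs in kept cells was 80.0% for Mrc1, 78.9% for Msr1, 82.2% for Stab1, 81.6% for Folr2, 82.5% for Cbr2 and 76.2% for Cd36. Macrophages were also 56.9% of the kept cells, with a higher median depth than monocytes, DCs and T cells. They thus held a large share of the UMIs of any gene, and these shares alone are not read as enrichment. The genes differed in how evenly macrophages carried them. The 5% of macrophages with the most UMIs of a gene held 24.8% of the UMIs of Mrc1, 19.4% of Msr1, 28.5% of Stab1 and 46.2% of Cd36, but 74.4% of Folr2 and 75.7% of Cbr2. Mrc1, Msr1 and Stab1 were thus spread over many cells and Folr2 and Cbr2 concentrated in few.

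Mrc1 had 9225 UMIs in 1792 macrophages, a level of 122.7 CPM (120.2–125.2). The cells with Ly6c2 and Cd209a stood at 74.7 CPM (53.1–102.1), cDC2 at 65.9 CPM (53.3–80.5) and monocytes at 44.3 CPM (39.1–50.0). The macrophage interval lay above all of these, while those of the cells with Ly6c2 and Cd209a and of cDC2 overlapped. Then came cDC1 at 19.3 CPM (11.8–29.7) and mature DCs at 6.87 CPM (2.23–16.0), with overlapping intervals, and plasmacytoid DCs had 8 UMIs in 1 cell. The 264 cells in no gate stood at 91.6 CPM (83.3–100.5), above monocytes and cDC2 and below macrophages. None of the 38 nonclassical monocytes had an Mrc1 UMI, against a limit of 10.96 CPM that a count of 0 allows. At 5000 UMIs per cell, Mrc1 was found in 38.2% of macrophages (74.3% unthinned), 10.4% of monocytes (17.6%), 14.7% of cDC2 (26.5%) and 3.75% of T cells (5.61%). The level in free RNA was 92.0 CPM and that in T cells 13.1 CPM (10.5–16.2), so monocytes and cDC2 stood above T cells and mature DCs did not. In cDC2 the 95 UMIs came from 18 of 68 cells, and the same 68 cells had 21 UMIs of Msr1. Free RNA held 315 UMIs of Mrc1 and 735 UMIs of Msr1.

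Msr1 was the member that macrophages and monocytes shared. Macrophages were at 253.9 CPM (250.3–257.5), monocytes at 276.8 CPM (263.6–290.6) and nonclassical monocytes at 91.3 CPM (59.1–134.8). The DC gates were between 12.5 CPM in cDC1 and 30.6 CPM in plasmacytoid DCs, with overlapping intervals, and T cells were at 46.0 CPM, so no DC gate exceeded T cells. At equal depth Msr1 was found in 61.8% of macrophages (89.6% unthinned), 64.4% of monocytes (80.0%) and 9.92% of T cells (13.1%). Free RNA stood at 214.8 CPM.

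Stab1 stood at 93.1 CPM (90.9–95.3) in macrophages and 25.8 CPM (21.9–30.2) in monocytes. In the DC gates it reached at most 17.3 CPM (10.3–27.4) in cDC1, from 18 UMIs in 3 cells, which overlapped the monocyte interval. T cells were at 8.70 CPM, and 30.4% of macrophages, 9.51% of monocytes and 3.49% of T cells had a UMI at equal depth.

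Cd36 followed another order. Its highest level was in nonclassical monocytes, a vessel-patrolling monocyte type, at 482.1 CPM (403.4–571.7), from 132 UMIs in 28 of 38 cells. Of the other gated classes, cDC1 followed at 60.6 CPM (46.6–77.6), with 63 UMIs in 26 of 35 cells, and macrophages at 53.4 CPM (51.7–55.0), with overlapping intervals. The 264 cells in no gate stood at 68.8 CPM (61.7–76.6), above macrophages. Mature DCs were at 35.7 CPM, all from 2 cells, and monocytes at 30.04 CPM (25.8–34.8). cDC2 were at 5.55 CPM (2.40–10.9), below the 9.01 CPM of T cells, with overlap. At 5000 UMIs, 67.7% of nonclassical monocytes, 16.4% of macrophages, 8.41% of monocytes and 4.02% of T cells had a Cd36 UMI. Free RNA stood at 43.5 CPM, far under the nonclassical monocytes.

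Among the gated classes, Folr2 and Cbr2 were close to macrophage-restricted at this depth. The 264 cells in no gate also held Folr2, at 11.3 CPM (8.49–14.7) from 55 UMIs in 18 cells, and Cbr2, at 2.46 CPM (1.27–4.29). Folr2 was at 25.1 CPM (24.0–26.3) in macrophages and 2.04 CPM (1.05–3.56) in monocytes, where 12 UMIs fell in 7 cells, against 2.75 CPM (1.63–4.34) in T cells. Cbr2 was at 12.6 CPM (11.8–13.4) in macrophages and 3.90 CPM (2.47–5.86) in monocytes, against 1.37 CPM (0.628–2.61) in T cells. The monocyte values of both genes overlapped those of T cells, for Cbr2 narrowly, and no order is read for the whole gate. Within the gate Folr2 was uneven. The 44 monocytes with C1q from 2500 to 5000 CPM held 10 of the 12 Folr2 UMIs, at 12.96 CPM (6.21–23.8), above T cells. The 366 monocytes with C1q under 500 CPM held 2. Whether these UMIs are background was not tested. In each DC gate either gene had 2 UMIs or fewer. At equal depth 7.99% of macrophages, 1.11% of monocytes and 0.536% of T cells had Folr2, and 4.32%, 1.55% and 0.536% of the same sets had Cbr2.

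Lyve1, Marco and Cd163 were rare. Lyve1 had 128 UMIs in 15 macrophages, 0 in monocytes and 1 UMI in nonclassical monocytes. Marco had 46 UMIs in 25 macrophages, of which 1 cell held 15, and 0 UMIs in monocytes and in every DC gate. Cd163 had 21 UMIs in 17 cells of all kinds, 8 of them in macrophages and 3 in plasmacytoid DCs, and after thinning to 10000 UMIs it was found in 0 of 2289 macrophages.

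**Figure D1:**
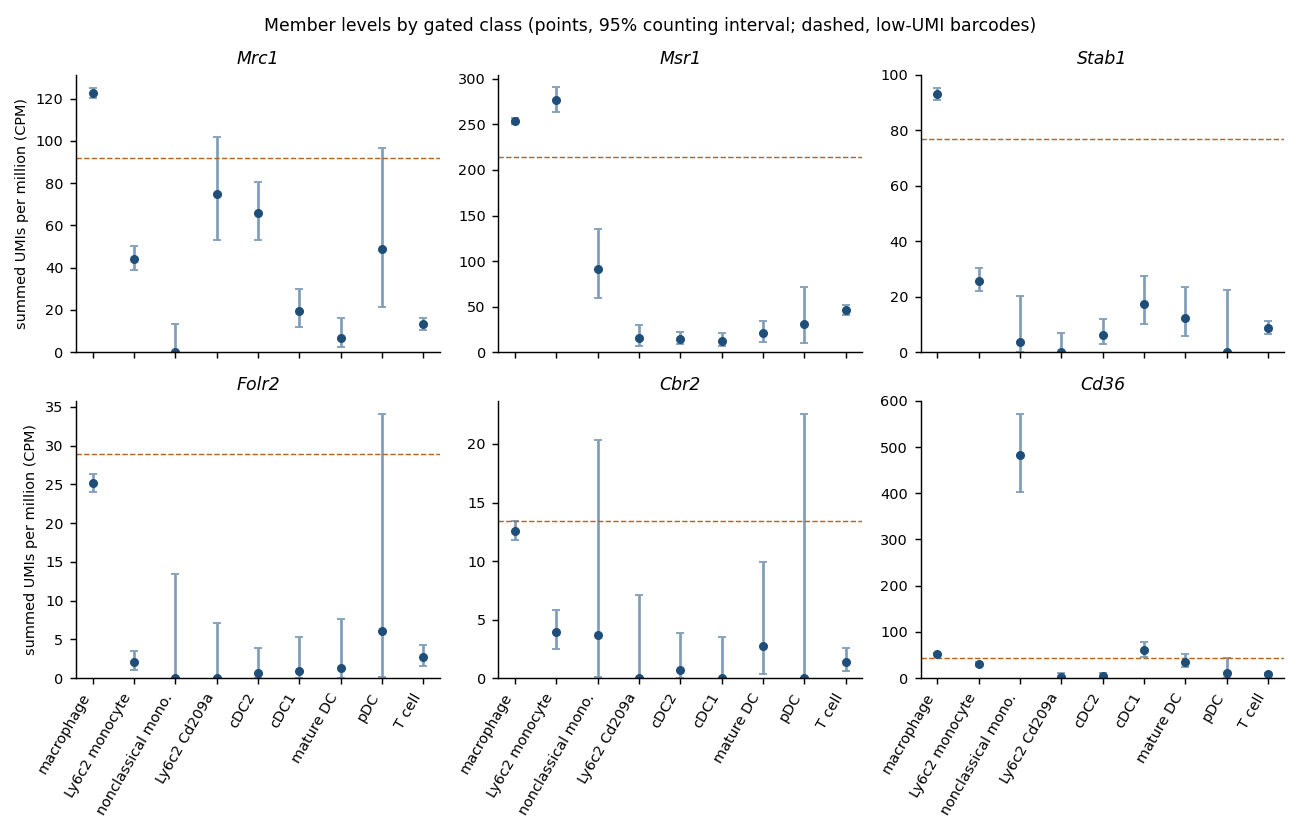
Level (CPM, linear axis) of 6 members in the gated classes and in T cells, each point from UMIs summed over the class, with bars for 95% Poisson intervals and a dashed line for free RNA. Mrc1, Stab1, Folr2 and Cbr2 are highest in macrophages, Msr1 is about level in macrophages and monocytes, and Cd36 peaks in nonclassical monocytes at 482.1 CPM.

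Macrophages were set against monocytes to describe which members differ between C1q-high cells and Ly6c2 monocytes, from which tumour macrophages can arise. Of 8 members that could be compared, 6 were past the fold of 1.5 higher in macrophages and none lower, where 28.0% of 11622 genes were past it higher and 15.5% lower. The median ratio of the members was 2.99, and that of all genes 1.11. Folr2 was 12.3 times as high (7.04–23.9), Stab1 3.61 times (3.07–4.27), Cbr2 3.22 times (2.13–5.10), Mrc1 2.77 times (2.45–3.14) and Cd36 1.78 times (1.53–2.08). Lyve1, with no UMI in monocytes, was at least 3.34-fold higher. Msr1 had a ratio of 0.917 (0.872–0.965), and Marco was at least 1.20-fold higher.

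The other genes of these pathways were divided. Of 12 other scavenger receptors compared, 4 were higher in macrophages and 4 lower, with a median of 1.03. Scarf2 stood at 2.11 CPM in macrophages and 0.339 CPM in monocytes, and Cd44, a hyaluronan receptor, at 149.4 CPM in macrophages and 335.9 CPM in monocytes. Of 7 other endocytic lectins, 2 were higher and 3 lower. Clec10a, a galactose-type lectin, was lower at 17.8 CPM in macrophages and 42.9 CPM in monocytes. Of 16 resident macrophage genes, 11 were higher and 4 lower. Gas6, a ligand that bridges dead cells to receptors of the TAM family, was at least 46.3-fold higher, and F13a1, coagulation factor XIII, was lower at 47.6 CPM in macrophages and 235.8 CPM in monocytes. Of 13 alternative activation genes, 2 were higher and 7 lower. Chil3, which encodes a chitinase-like protein, stood at 6.77 CPM in macrophages and 758.2 CPM in monocytes, and Retnla, which encodes RELM-alpha, at 20.6 CPM in macrophages and 9.67 CPM in monocytes. Genes of haem and iron handling had 8 of 11 higher and none lower, those of lipid uptake and handling 10 of 17 higher and 1 lower, and those of folate metabolism 8 of 10 higher and none lower. Efferocytosis genes had 4 of 10 higher and none lower, with Mertk at 13.9 CPM in macrophages and 2.21 CPM in monocytes.

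Against cDC2, all 6 members that could be compared were past the fold higher in macrophages, where 29.6% of 9922 genes were higher and 12.4% lower. The ratio was 36.2 for Folr2 (6.49–1431) and 18.1 for Cbr2 (3.24–716), each against 1 UMI in cDC2, 17.4 for Msr1 (11.4–28.2), 14.9 for Stab1 (7.85–32.6) and 9.62 for Cd36 (4.88–22.3). With cells thinned to 5000 UMIs no cDC2 kept a Folr2 or Cbr2 UMI, which left bounds of at least 3.32-fold and 1.54-fold. Mrc1 was nearest to 1, at 1.86 (1.52–2.30). Monocytes set against cDC2 were higher past the fold for 3 of 4 members and lower for none, where 20.9% of genes were higher and 14.6% lower, with Msr1 at a ratio of 19.0, Cd36 at 5.42 and Stab1 at 4.13. Mrc1 alone had a ratio under 1 there, 0.673 (0.530–0.860). Nonclassical monocytes set against Ly6c2 monocytes were higher past the fold for 1 of 4 members, Cd36, at 16.0 times (12.7–20.2), where 18.1% of genes were higher. They were lower for 3, where 25.6% of genes were lower, with ratios of 0.330 for Msr1, 0.142 for Stab1, on 1 UMI in nonclassical monocytes, and at most 0.247 for Mrc1.

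Ly6c2-positive macrophages carry both the monocyte gene and high C1q, and they were set against Ly6c2-negative macrophages. Of 7 members compared, none was past the fold higher and 1 was lower, where 7.81% of genes were higher and 13.2% lower. Msr1 stood at 339.1 CPM in Ly6c2-positive and 248.4 CPM in Ly6c2-negative macrophages, ratio 1.36 (1.29–1.44). Mrc1 stood at 94.3 CPM in Ly6c2-positive and 124.5 CPM in Ly6c2-negative macrophages, ratio 0.758 (0.686–0.835), and Stab1 had a ratio of 0.744. Lyve1 was the member past the fold, with 0 UMIs in Ly6c2-positive and 128 UMIs in Ly6c2-negative macrophages, ratio at most 0.368, which turned to 1.93 with the CD3 and C1q barcodes kept. Marco had 0 UMIs in Ly6c2-positive macrophages and all its 46 UMIs in the negative ones. The share of free RNA, estimated from genes of T cells, was 6.53% of UMIs in Ly6c2-positive macrophages and 1.84% in all macrophages. This estimate cannot tell free RNA from RNA of co-captured cells. The macrophages included 16 cells led by Gzma, Xcl1 and Nkg7 (cluster 14 of the clustering below), of which 25% were Ly6c2-positive. Their part in the share was not tested.

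Along the level of C1q the members separated. Among Ly6c2-positive cells with C1q from 0, 500, 2500, 5000 and 10000 CPM (366, 49, 44, 80 and 95 cells), Mrc1 was at 30.4, 58.8, 111.5, 93.9 and 95.7 CPM. Its level was higher in the third range than in the first and level from there on. Cd36 was at 23.2, 44.1, 57.0, 55.4 and 68.3 CPM over the same ranges, and Msr1 at 277.1, 254.3, 295.5, 291.3 and 362.2 CPM. Folr2 had 0.451 and 0 CPM in the first 2 ranges and 12.96, 12.04 and 27.7 CPM in the others. Among Ly6c2-negative macrophages with C1q from 5000, 10000 and 20000 CPM (220, 1429 and 579 cells), Mrc1 was at 127.0, 110.3 and 168.7 CPM and Stab1 at 66.7, 89.9 and 118.5 CPM. Both were highest where C1q was highest, Stab1 in steps and Mrc1 only in the top range. Cd36 ran the other way, at 129.9, 50.7 and 33.8 CPM, and so did Msr1, at 289.8, 254.6 and 215.0 CPM.

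**Figure D2:**
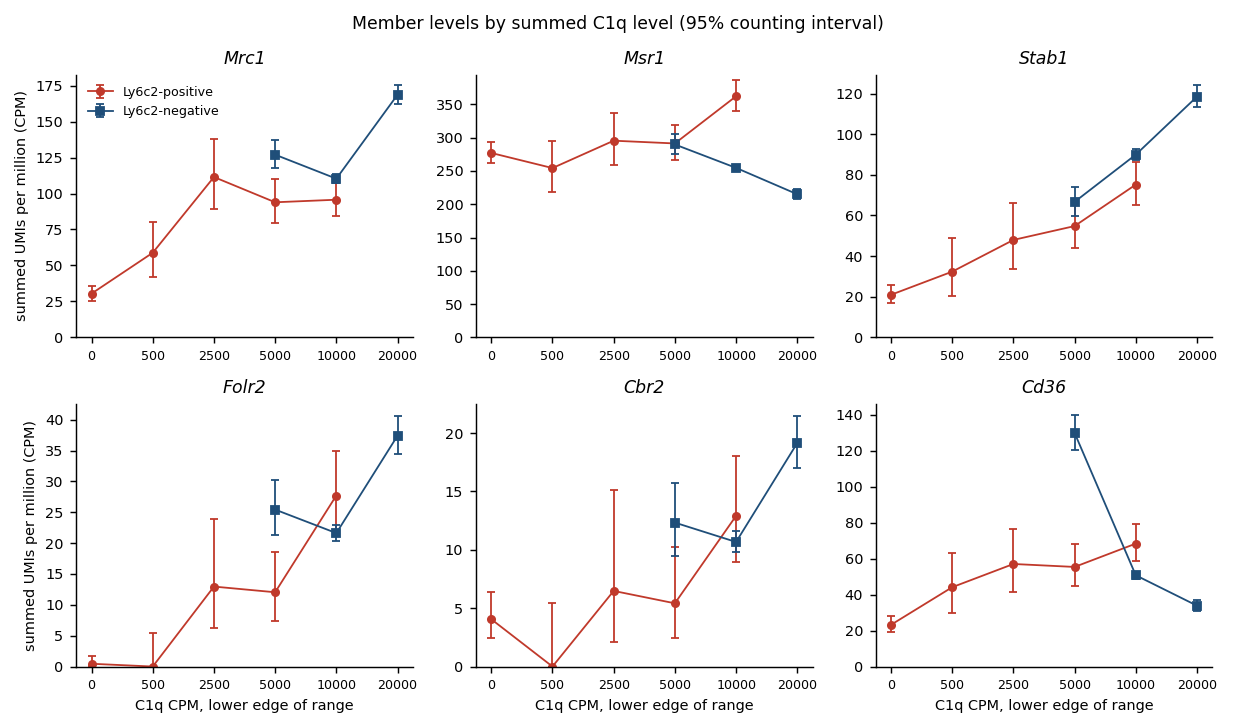
Level (CPM) of the members in ranges of summed C1q, with Ly6c2-positive cells in red and Ly6c2-negative cells in blue and bars for 95% Poisson intervals. Among Ly6c2-negative macrophages Stab1 is higher and Cd36 and Msr1 are lower in the higher C1q ranges, with Cd36 at 129.9 CPM in the first and 33.8 CPM in the last.

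Clusters of the gated macrophages were built from 1944 variable genes without the members and without the listed pathway genes, so that the members' levels across clusters do not come from the clustering itself. Of 14 clusters, 12 had at least 50 cells. Mrc1 ranged from 61.9 CPM in cluster 4, which was led by the mitotic genes Pif1, Cenpf and Ube2c, to 234.1 CPM in cluster 9, led by Gpr34, Ptgs1, P2ry13 and Mertk, and 440.2 CPM in cluster 12. Cluster 12 held 58 cells and was led by Saa3, Retnla, Lyz1, F13a1 and Ccl6. It is singled out here because it had the highest Folr2, so its values are a description. Stab1 ranged from 47.5 CPM in cluster 4 to 162.8 CPM in cluster 9, with cluster 12 at 140.2 CPM. Folr2 ranged from 4.91 CPM in cluster 4 to 43.8 CPM in cluster 9 and 416.3 CPM in cluster 12. Cbr2 had the same upper order, with 21.7 CPM in cluster 9 and 222.3 CPM in cluster 12. Cluster 9 was thus second to cluster 12 for Mrc1, with cluster 11 next at 204.5 CPM (190.4–219.5) and no overlap. For Folr2 its interval (38.5–49.5) overlapped that of cluster 11, at 34.8 CPM (29.1–41.3). For Cbr2 the intervals of cluster 9 (18.1–25.8) and cluster 11, at 14.3 CPM (10.7–18.6), also overlapped. For Stab1 the interval of cluster 9 (152.6–173.5) overlapped those of cluster 6, at 142.8 CPM (132.6–153.7), and cluster 12 (119.6–163.4).

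The lipid and class A receptors were arranged differently. Cd36 was highest in cluster 11, at 174.2 CPM, which was led by Ear2, F7, Atp6v0d2 and Fabp4, and stood at 119.7 CPM in cluster 12 and 36.9 CPM in cluster 9. Msr1 was highest in cluster 7, at 359.6 CPM, which was led by Hp and Ly6c2 and held 52.5% Ly6c2-positive cells, and its whole range over the 12 clusters was 2.07-fold. Marco was highest in cluster 9, at 4.31 CPM from 25 UMIs in 8 cells, and had 0 UMIs in cluster 12. Across the 12 clusters the Pearson correlation of log-transformed levels was 0.916 for Mrc1 and Cbr2, 0.889 for Mrc1 and Folr2, 0.764 for Mrc1 and Stab1 and -0.07 for Mrc1 and Msr1. Without cluster 12 these were 0.828, 0.750, 0.796 and 0.266 over the other 11 clusters, which share a library and differ in depth.

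**Figure D3:**
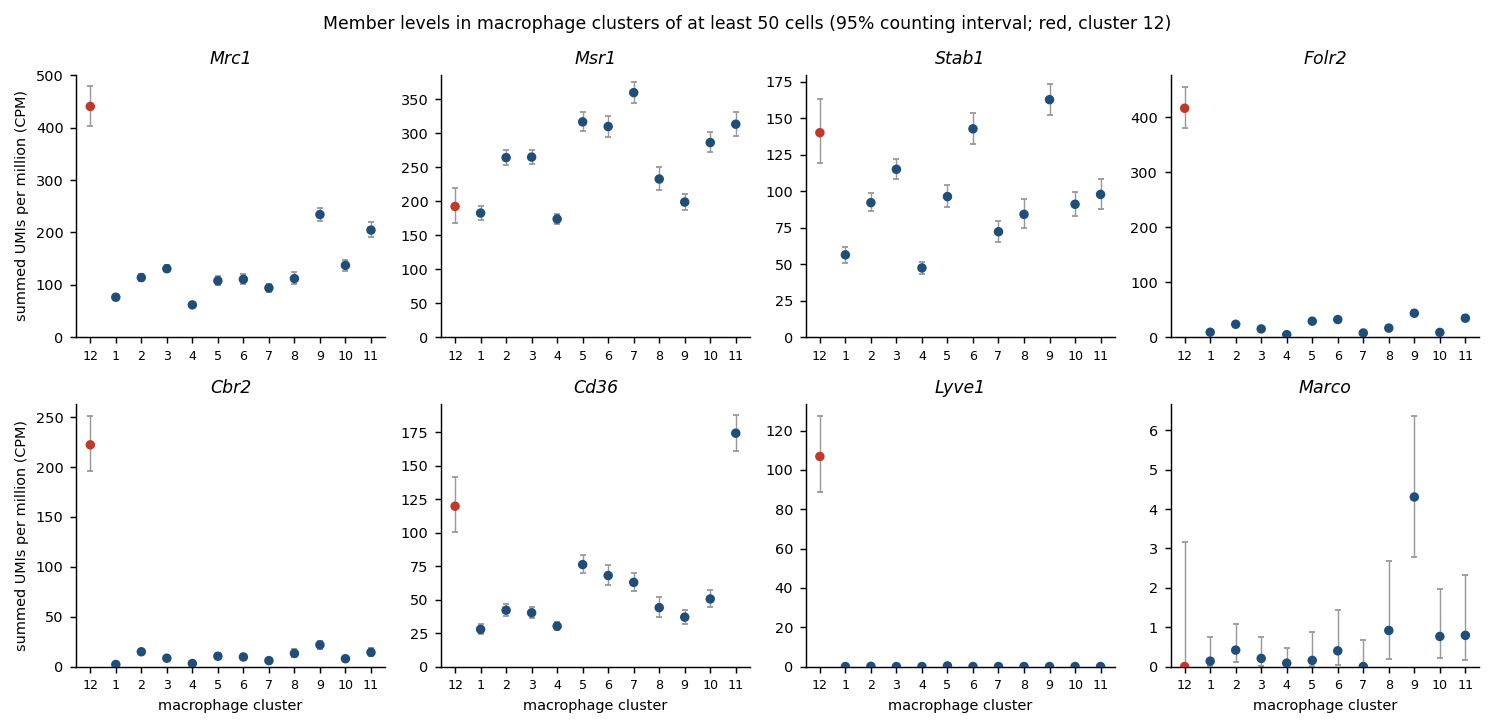
Level (CPM) of 8 members in the 12 macrophage clusters of at least 50 cells, cluster 12 first and in red, with bars for 95% Poisson intervals. Mrc1, Folr2, Cbr2 and Lyve1 are highest in cluster 12, Marco in cluster 9, Cd36 in cluster 11 and Msr1 in cluster 7.

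In cluster 12 set against the other 2353 macrophages, Cbr2 was 24.0 times as high and Mrc1, at 440.2 CPM in cluster 12 and 117.6 CPM in the others, 3.74 times (3.42–4.09). Cd36 was at 119.7 CPM in cluster 12 and 52.3 CPM in the others, Stab1 at 140.2 CPM in cluster 12 and 92.4 CPM in the others, and Msr1 at 192.3 CPM in cluster 12 and 254.8 CPM in the others. Leaving Folr2 aside, 4 of 5 members compared were higher past the fold and none lower, where 18.6% of genes were higher and 16.3% lower. Stab1 is among the 4, but at 10000 UMIs per cell it was found in 34.7% of cluster 12 (21.7–49.6) and 47.7% of the others (45.6–49.8), against its CPM, and no order is read for it. Markers of other cells were measured in the same sets. The 8 monocyte markers summed to 1918 CPM in cluster 12 and 320.0 CPM in the others, the 8 macrophage markers to 24158 CPM in cluster 12 and 25545 CPM in the others, and the 8 T cell markers to 26.5 CPM in cluster 12 and 5.46 CPM in the others. The 6 cDC1 markers summed to 979.7 CPM in cluster 12, with Itgae at 0, and 504.4 CPM in the others, and the 7 mature DC markers to 411.2 CPM in cluster 12 and 246.9 CPM in the others. The lymphatic endothelial markers, relevant because lymphatic vessels carry Lyve1, summed to 3.42 CPM in cluster 12 and 32.8 CPM in the others, with Prox1, Flt4, Reln and Mmrn1 at 0 in cluster 12. Fibroblast markers summed to 41.0 CPM in cluster 12 and 2.69 CPM in the others. The part of these markers in the result was not tested.

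Cluster 12 itself was uneven. Its 12 cells with at least 2 Lyve1 UMIs held 125 of the 128 Lyve1 UMIs of all macrophages. Folr2 stood at 1019 CPM in these 12 cells and 147.2 CPM in the other 46 cells of the cluster, Cbr2 at 598.1 CPM in the Lyve1 cells and 54.4 CPM in the others, Mrc1 at 780.8 CPM in the Lyve1 cells and 288.1 CPM in the others and Stab1 at 354.4 CPM in the Lyve1 cells and 44.5 CPM in the others. Gas6 was at 437.5 CPM in the Lyve1 cells and 33.4 CPM in the others and Fcna, which encodes ficolin A, at 188.3 CPM in the Lyve1 cells and 2.47 CPM in the others. The monocyte genes were divided. F13a1, a monocyte marker that is also on the resident list, was at 1456 CPM in the Lyve1 cells and 284.4 CPM in the others. Ccr2 was lower in the Lyve1 cells, at 210.4 CPM against 895.3 CPM in the others, and so was Ly6c2, at 8.31 CPM against 176.8 CPM. Cd36 was also lower in the Lyve1 cells, at 85.8 CPM against 134.8 CPM in the others, and Timd4, a phosphatidylserine receptor of resident macrophages, had 0 UMIs in either set. In all, 15 cells had at least 2 Lyve1 UMIs, 12 in cluster 12 and 3 among the CD3 and C1q barcodes. Each of the 15 also had Folr2 (13 to 55 UMIs), Cbr2 and Mrc1, and none had Cd163 or Marco.

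Co-detection among macrophages was measured at 10000 UMIs per cell, which left 2289 macrophages and left out 122 shallower ones. At this depth Msr1 was found in 78.9% of cells, Mrc1 in 54.8%, Stab1 in 47.4%, Cd36 in 24.9%, Folr2 in 9.92% and Cbr2 in 6.38%. Lyve1 was found in 14 cells and Marco in 8. For all 15 pairs of the 6 genes above 5%, the share of cells with the other gene was higher in cells with the given gene than in cells without it, and the intervals did not overlap. Here the given gene was the first of each pair in the order Mrc1, Msr1, Stab1, Folr2, Cbr2 and Cd36. Taken the other way, Cbr2 was found in 8.79% of cells with Cd36 (6.59–11.4) and 5.58% of cells without it (4.54–6.77), which overlapped. Pairs of other genes found in like shares of cells were not measured. The count of pairs is therefore not read as particular to the members.

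Among the 6 genes the closest pair was Folr2 and Cbr2, with a Pearson correlation of log counts over cells of 0.483. Folr2 was found in 38.4% of cells with Cbr2 (30.4–46.8) and 7.98% of cells without it (6.87–9.21). Cbr2 was found in 24.7% of cells with Folr2 (19.2–30.8) and 4.36% of cells without it (3.52–5.34). Without cluster 12 the shares for Folr2 were 30.4% with Cbr2 and 7.52% without it, so the pairing was also present in the other macrophages. Mrc1 was found in 79.5% of cells with Cbr2 and 53.1% without, and in 76.7% of cells with Folr2 and 52.4% without. Stab1 was found in 54.7% of cells with Mrc1 and 38.6% without, and Msr1 in 84.1% of cells with Mrc1 and 72.5% without. Cd36 was found in 42.7% of cells with Folr2 and 22.9% without. Of the 14 cells with Lyve1 all had Mrc1, 13 had Folr2 and 12 had Cbr2.

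Cells carried a median of 2 of the 6 genes. None of them was found in 189 cells (8.26%), and all 6 in 19 cells (0.830%), of which 6 were among the 49 cells of cluster 12 at this depth (12.2%, 4.63–24.8) and 13 among the other 2240 (0.580%, 0.309–0.990). Folr2, which singled out cluster 12, is 1 of the 6 genes, so these shares are a description and most such cells lay outside the cluster.

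**Figure D4:**
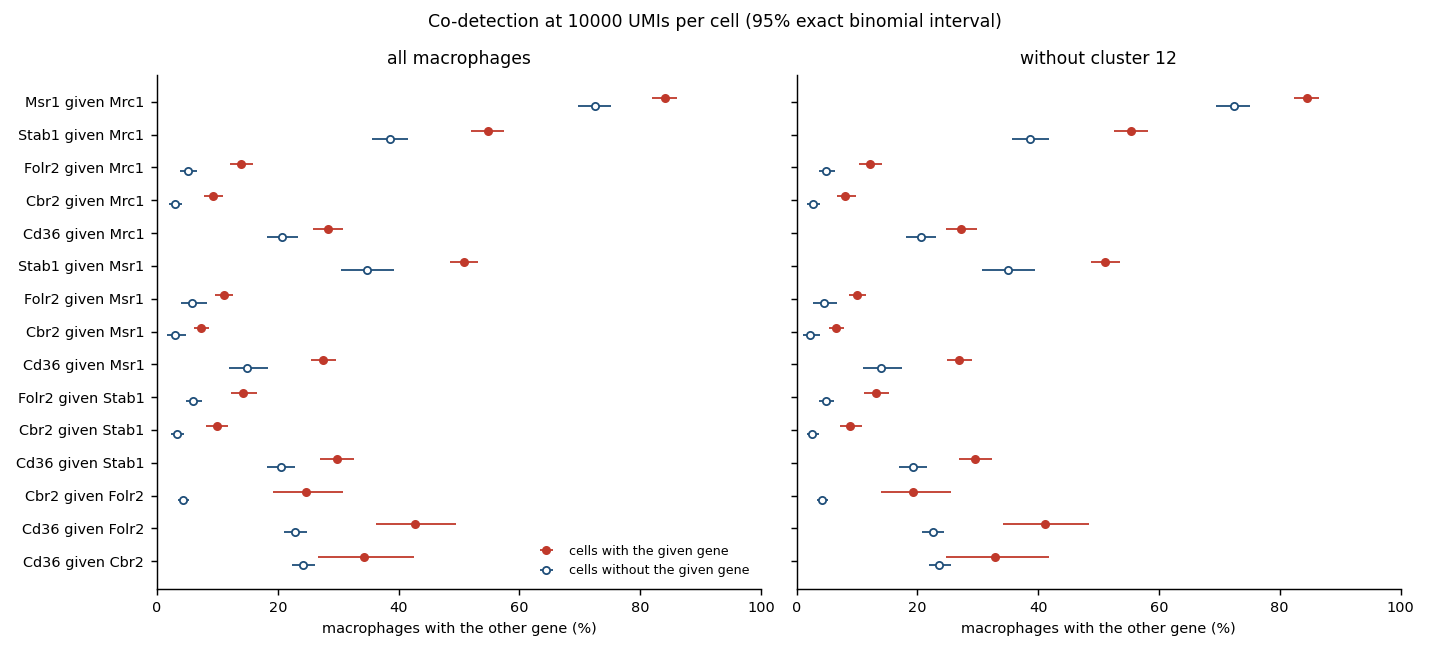
Share of macrophages (percent, 10000 UMIs per cell) with the other gene of each of 15 pairs, in cells with and without the given gene, for all macrophages at left and without cluster 12 at right, with bars for exact 95% binomial intervals. The share is higher with the given gene in every pair at left, as for Cbr2 given Folr2 at 24.7% with Folr2 and 4.36% without it.

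Splitting macrophages by Mrc1 at the same depth gave 1255 cells with and 1034 without an Mrc1 UMI. Mrc1 made the split and is not counted. Of the 7 other members compared, 5 were higher past the fold in Mrc1-detected cells and none lower, where 4.88% of 11896 genes were higher and 2.07% lower. Cbr2 stood at 20.1 CPM in Mrc1-detected and 3.71 CPM in undetected cells, ratio 5.42 (4.49–6.59), and Folr2 at 37.6 CPM with Mrc1 and 10.1 CPM without, ratio 3.73 (3.31–4.20). Stab1 stood at 121.0 CPM with Mrc1 and 59.5 CPM without, ratio 2.03 (1.93–2.14). Marco had 40 UMIs in Mrc1-detected and 5 UMIs in undetected cells, ratio 6.69 (2.64–21.7), but the ratio was 0.863 in cells with at most 5% mitochondrial UMIs. Lyve1 was at least 35.7-fold higher. Msr1 and Cd36 both had a ratio of 1.34, under the fold. Without cluster 12, 4 of 6 members were past it higher and none lower, where 4.56% of genes were higher and 2.19% lower, with Cbr2 at 4.10, Folr2 at 2.83 and Stab1 at 2.02.

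Of the listed genes, those of resident macrophages had 10 of 17 higher in Mrc1-detected cells and none lower, with a median ratio of 2.17 beside 1.01 for all genes; without cluster 12 they had 6 of 15 higher and 1 lower, with a median of 1.37. Efferocytosis genes had 2 of 10 higher, Gas6 at 35.1 CPM with Mrc1 and 9.62 CPM without and Mertk at 17.8 CPM with Mrc1 and 9.21 CPM without. Of 8 endocytic lectins, 4 were higher, among them Clec10a at 24.6 CPM with Mrc1 and 9.56 CPM without, and 1 was lower, Cd209a. Alternative activation genes had 4 of 13 higher, with Retnla at 29.4 CPM with Mrc1 and 9.65 CPM without, and 2 lower, the chemokine genes Ccl17 at 0.468 CPM with Mrc1 and 7.94 CPM without and Ccl22 at 0.714 CPM with Mrc1 and 2.09 CPM without. Without cluster 12 these were 3 of 13 higher and 4 lower, and the median ratio was 0.932. Few cells carried Retnla, with 876 UMIs in 14 cells of cluster 12 and 438 UMIs in 20 cells of cluster 11. Of 11 haem and iron genes only Trf, which encodes transferrin, was past the fold, at 161.6 CPM with Mrc1 and 63.5 CPM without. Lipid genes had 5 of 17 higher, such as the cholesterol exporter Abca1 at 61.4 CPM with Mrc1 and 31.2 CPM without, and 1 lower, the nuclear receptor gene Pparg at 42.6 CPM with Mrc1 and 70.3 CPM without. Scavenger receptors had 2 of 12 higher, Scarf1 at 14.2 CPM with Mrc1 and 6.91 CPM without and Cd14 at 167.8 CPM with Mrc1 and 104.4 CPM without, and folate genes had 0 of 10 in either direction.

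Among 8551 genes found in at least 5% of the 2289 macrophages, the pattern of Mrc1 was most like those of Pf4 (r = 0.448), Selenop (0.443) and Lyz2 (0.388), by the Pearson correlation of log counts over cells of 1 library at equal depth. Stab1 was most like Pf4 (0.384), Fcrls (0.355) and Apoe (0.338), and Msr1 most like C5ar1 (0.311), Lyz2 (0.280) and Fabp5 (0.276). Folr2 and Cbr2 were most like each other (0.483), and each was followed by F13a1 and Gas6, at 0.451 and 0.369 for Folr2 and at 0.379 and 0.387 for Cbr2. Cd36 had the weakest likenesses, to Ccl6 (0.274), Ccl9 (0.244) and Vat1 (0.216).

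Spatial barcodes were read in 2 ways. With at least 10 spatial UMIs and 2 times the next barcode, 5 macrophages were assigned to ZC1, 8 to ZC2 and 1479 to ZC3, too few of the first 2 to compare. Barcodes with 10 to 100 gene UMIs carried 15.6% ZC1, 26.4% ZC2 and 58.0% ZC3. With each share divided by these, at least 30 spatial UMIs and 1.5 times the next, 250 macrophages were assigned to ZC1, 245 to ZC2 and 702 to ZC3, and 1214 to none. These sets are ranks of relative barcode content, with median depths of 23975, 26588 and 32816.5 UMIs, and all values by ZC below rest on this relative rule.

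Mrc1 stood at 168.2 CPM (158.4–178.4) in ZC1, 141.8 CPM (133.2–150.8) in ZC2 and 86.5 CPM (82.9–90.3) in ZC3 macrophages. Folr2 stood at 63.2, 32.9 and 13.4 CPM in the same order, Cbr2 at 31.7, 13.2 and 7.27 CPM and Cd36 at 98.9, 55.0 and 37.5 CPM. In CPM these 4 genes were highest in ZC1 and lowest in ZC3, with no overlap between neighbours. Their shares of cells did overlap between neighbours, as given below. The share of free RNA, estimated from genes of T cells, ran in the same order, at 3.45%, 2.79% and 1.12% of UMIs. This estimate cannot tell free RNA from RNA of co-captured cells. Cluster 14, led by Gzma, Xcl1 and Nkg7, stayed among the macrophages, and Xcl1 is among the genes used. It made up 2%, 0.816% and 0.285% of ZC1, ZC2 and ZC3 macrophages, and its part in these shares was not tested. With the same free RNA profile subtracted from each set, the ratio of ZC1 to ZC3 was 1.98 for Mrc1 and 4.89 for Folr2. That profile, at 92.0 CPM for Mrc1 and 28.9 CPM for Folr2, lies between the ZC1 and ZC3 levels. Its subtraction could therefore only raise these ratios, and it cannot show free RNA that differs by region. Msr1 was flat at 240.8, 229.7 and 242.2 CPM. Stab1 was at 91.4, 96.2 and 76.4 CPM, with ZC1 and ZC2 overlapping. Lyve1 had 47 UMIs in 5 cells, 36 UMIs in 1 cell and 9 UMIs in 1 cell.

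Between ZC1 and ZC3 macrophages, 5 of 7 members were higher past the fold and none lower, where 7.53% of 10825 genes were higher and 5.58% lower. The ratios were 4.73 for Folr2 (4.08–5.49), 4.36 for Cbr2 (3.55–5.35), 2.64 for Cd36 (2.38–2.92), 1.94 for Mrc1 (1.81–2.09), 19.5 for Lyve1, 1.20 for Stab1 and 0.994 for Msr1 (0.940–1.05). Between ZC2 and ZC3, 4 of 7 were higher and none lower, where 5.80% of genes were higher and 4.51% lower, with Mrc1 at 1.64 and Folr2 at 2.46. Between ZC1 and ZC2, 3 of 7 were higher and none lower, where 3.53% of genes were higher and 2.86% lower, namely Cbr2 at 2.41, Folr2 at 1.92 and Cd36 at 1.80. At 10000 UMIs Mrc1 was found in 62.6%, 56.5% and 45.1% of ZC1, ZC2 and ZC3 macrophages, Folr2 in 18.9%, 10.5% and 6.54%, Cd36 in 41.4%, 23.2% and 20.1% and Msr1 in 77.5%, 80.2% and 75.3%. The shares for Stab1, 41.9%, 42.6% and 44.9%, ran against its CPM, and no order is read for it.

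Cluster 12 was a large part of the ZC1 set. Of its 45 assigned cells 42 were ZC1 (93.3%, 81.7–98.6), against 208 of 1152 assigned cells of the other clusters (18.1%, 15.9–20.4), and it made up 16.8% of ZC1 macrophages. Its median ZC1 share of spatial UMIs was 32.7%, and those of the other clusters were between 8.84% and 15.8%. ZC3 still had the larger median share in cluster 12, at 43.4%, and the fixed rule put 11 of its cells in ZC3 and none in ZC1 or ZC2, so its place in ZC1 rests on the relative rule. The Lyve1 cells of the cluster were less uniform, with 5 in ZC1, 1 in ZC2, 1 in ZC3 and 5 unassigned, whereas 37 of the other 46 were in ZC1. Without cluster 12, Folr2 was at 28.9 CPM in ZC1 and 12.3 CPM in ZC3 (ratio 2.36), Mrc1 at 142.7 CPM in ZC1 and 85.7 CPM in ZC3 (1.66) and Cd36 at 93.2 CPM in ZC1 and 37.6 CPM in ZC3 (2.48), and 4 of 6 members were past the fold higher and none lower, where 6.12% of genes were higher and 5.22% lower. Between ZC2 and ZC3, 2 of 6 were then past it higher and none lower, where 5.74% of genes were higher and 4.59% lower, namely Folr2 at 2.08 and Mrc1 at 1.57. Between ZC1 and ZC2, 2 of 6 were then past it higher and none lower, Cd36 at 1.70 and Cbr2 at 1.68, where 2.79% of genes were higher and 2.82% lower. Folr2, at 28.9 CPM in ZC1 and 25.5 CPM in ZC2 (1.13, 0.912–1.40), was then no longer past the fold, and the intervals of Mrc1 in ZC1 and ZC2, where it was at 135.0 CPM, overlapped. Cluster 9, second highest in Mrc1, made up 8%, 18.4% and 4.84% of ZC1, ZC2 and ZC3 macrophages, and cluster 11, highest in Cd36, made up 10.8%, 8.57% and 1.85%.

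Within single clusters with at least 20 cells on both sides, the ratios of ZC1 to ZC3 varied. In cluster 7 Mrc1 stood at 166.3 CPM in ZC1 and 79.4 CPM in ZC3 (2.10, 1.59–2.76), with 1 of 4 members past the fold higher and none lower, where 7.70% of genes were higher and 7.88% lower. In cluster 5, led by Ifnb1, Hspb1 and Hspa1b, Cd36 stood at 104.2 CPM in ZC1 and 55.5 CPM in ZC3 and Stab1 at 145.2 CPM in ZC1 and 76.2 CPM in ZC3, with 2 of 5 members past the fold higher and none lower, where 9.33% of genes were higher and 11.6% lower. In cluster 3 no member of 5 was past the fold, where 6.47% of genes were higher and 10.0% lower, and Mrc1 had a ratio of 1.48 (1.16–1.88). In cluster 9 Mrc1 had a ratio of 0.984 (0.754–1.27), and Folr2 at 0.509 and Msr1 at 0.594 were 2 of 5 members lower past the fold, with none higher, where 7.64% of genes were higher and 9.30% lower. Folr2 thus had no ratio past the fold higher in clusters 3, 5 and 9, where it could be compared (0.917, 1.25 and 0.509), and in cluster 7 its 20 UMIs in ZC1 and 7 UMIs in ZC3 were under the minimum. For ZC2 over ZC3, no member was past the fold higher within clusters 1, 2, 3, 7 and 9, and 2, 1, 1, 1 and 0 were lower. The median ratio of the members was 0.961, 0.917, 0.850, 0.836 and 0.995 there. That of all genes was 1.00, 1.00, 0.966, 1.01 and 1.00.

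The spatial order was not the same in monocytes, and T cells showed part of it. In 87 ZC1 and 120 ZC3 monocytes, none of 4 members was higher past the fold and 2 were lower, Cd36 (0.566, 0.341–0.912) and Stab1 (0.611, 0.348–1.04), where 10.2% of genes were higher and 6.50% lower. Msr1 stood at 224.6 CPM in ZC1 and 315.8 CPM in ZC3 monocytes (0.711, 0.607–0.832), Cd36 at 23.4 CPM in ZC1 and 41.4 CPM in ZC3 and Mrc1 at 66.5 CPM in ZC1 and 49.9 CPM in ZC3 (1.33, 0.9501–1.87). For 97 ZC2 over 120 ZC3 monocytes, none of 4 members was higher past the fold and 2 were lower. Their median ratio was 0.676, beside 1.03 for all genes. In 156 ZC1, 109 ZC2 and 94 ZC3 T cells, Mrc1 was at 26.2, 4.91 and 0.806 CPM, with 34 UMIs in 9 cells in ZC1, and Msr1 at 64.0, 41.1 and 12.9 CPM. The summed C1q genes in the same T cells ran otherwise, at 343.0, 581.0 and 546.4 CPM. The part of such macrophage RNA in the values of macrophages by ZC was not tested.

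**Figure D5:**
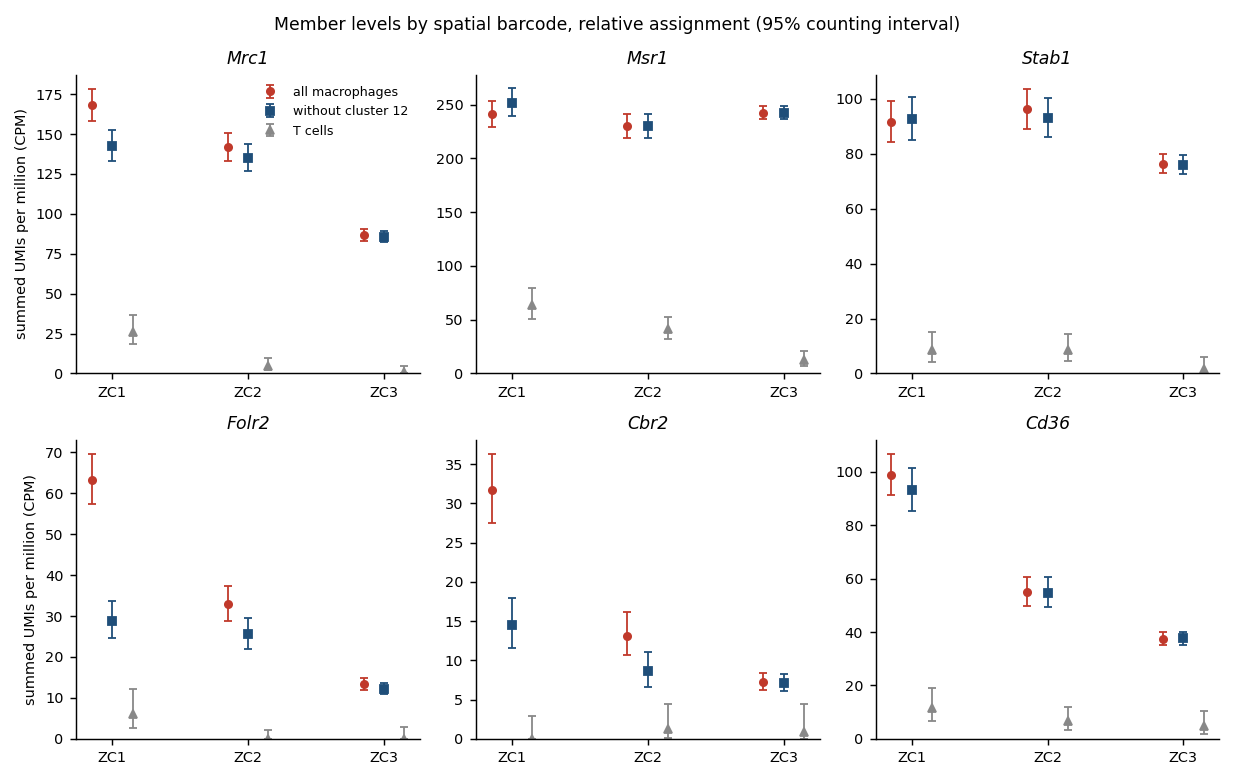
Level (CPM) of the members by relative spatial barcode ZC1, ZC2 and ZC3 in all macrophages, in macrophages without cluster 12 and in T cells, with bars for 95% Poisson intervals. Mrc1, Folr2, Cbr2 and Cd36 are highest in ZC1 and Msr1 is about level, and without cluster 12 Folr2 is at 28.9 CPM in ZC1 and 12.3 CPM in ZC3.

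Genes of the same pathways were also set by ZC1 and ZC3. Alternative activation genes had 9 of 12 higher in ZC1 macrophages and 1 lower, with Retnla, carried by few cells, at 97.5 CPM in ZC1 and 1.35 CPM in ZC3, Ccl17 at 27.1 CPM in ZC1 and 3.19 CPM in ZC3 and Tgm2, a transglutaminase, lower at 117.3 CPM in ZC1 and 185.2 CPM in ZC3. Resident macrophage genes had 10 of 15 higher and none lower, and endocytic lectins 4 of 7 higher, such as Clec10a at 41.0 CPM in ZC1 and 13.2 CPM in ZC3, and 1 lower. Of 10 scavenger receptors, 3 were higher, Cd14 among them at 216.9 CPM in ZC1 and 98.2 CPM in ZC3, and Scarf2 was lower at 1.07 CPM in ZC1 and 3.23 CPM in ZC3. Lipid genes had 5 of 16 higher and 1 lower, with Fabp5, a fatty acid carrier, at 520.7 CPM in ZC1 and 281.3 CPM in ZC3 and Pparg at 42.6 CPM in ZC1 and 65.6 CPM in ZC3. Haem and iron genes had 1 of 11 higher, Trf, efferocytosis genes 2 of 9 higher, and folate genes none higher and 2 of 10 lower. The median ratio was 2.56 for alternative activation, 1.68 for resident and 2.04 for lectin genes, beside 0.980 for all genes. Without cluster 12, 8 of 11 alternative activation genes were higher (median 2.13), 6 of 14 resident genes (1.48), 3 of 6 lectins (1.57) and 1 of 9 scavenger receptors, beside a median of 0.973 for all genes.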

How the data were processed

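Immune cells of B78ChOVA melanoma were measured in 1 gene expression library and 1 spatial barcode library of the same cells. The deposited matrices hold raw UMI counts made with Cell Ranger 4.0.0 on mm10, per the submitters' processing notes; they are unfiltered, so free RNA and empty droplets are in them. Cells had at least 1000 UMIs and 500 genes and at most 10% mitochondrial UMIs. Classes were gated in CPM with at least 2 UMIs of the marker genes: macrophages by C1qa, C1qb and C1qc at 5000 CPM, monocytes by Ly6c2 at 100 CPM, cDC2 by Cd209a at 100 CPM, nonclassical monocytes at 200 CPM, and T cells by CD3 genes at 100 CPM. No doublet caller was run, and barcodes with CD3 and C1q were left out.

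Levels (CPM) are UMIs of a gene summed over a set, per 1000000 UMIs of that set, with exact Poisson 95% intervals. Ratios have exact conditional binomial intervals and shares Clopper-Pearson intervals. A ratio needed 30 UMIs over both sets and 3 expected in the smaller, and where a set had no UMI its bound used 3 counts for that set. UMIs are counted molecules, and intervals cover counting error only, not differences between tumours. Macrophages were clustered with scanpy 1.11.5 (2000 variable genes less members and listed genes, 30 components, 15 neighbours, Leiden resolution 1, seed 0), under Python 3.11.15 with scipy 1.17.1, numpy 2.4.6 and pandas 2.3.3. The relative barcode rule was a listed alternative and carries the spatial values, because the fixed rule left under 20 cells in ZC1 and ZC2.

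The members, the 8 lists of 113 genes and the comparisons were chosen with earlier results of these data known. The genes named are the 9 members, the 3 genes most like each member found in at least 5% of macrophages, and at most the 2 highest and 2 lowest ratios of a list; cluster 12 and the genes given for its Lyve1 cells were chosen after their values were seen. Clec7a of the lists and 2 markers, Ly6a2 and Ccl21a, did not match a symbol. RefSeq promoters matched 7 members; Msr1 and Lyve1 had none. Alternatives changed filters, gates, thinning depth and seed, averaging, free RNA, clustering and the rule for spatial barcodes. The intervals were tested on simulated Poisson counts. Those follow the model that the intervals assume, so the test does not cover UMIs concentrated in few cells.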

Additional observations from a re-analysis of the deposited data

Results flagged for a closer look

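The matrix also lists mVenus, a yellow fluorescent reporter that no comparison above uses, and the labels do not say which cells carry it or what the CD206R tag of the matrix stands for. It had 15 UMIs, 1 in each of 15 cells, of which 12 were macrophages, 1 carried CD3 and C1q, 1 carried Ly6c2 and Cd209a and 1 was in no gate. With no control sample, it is given because 15 UMIs lie above the 3 that a count of 0 allows, which is not a background level. All 15 cells had Mrc1, from 1 to 22 UMIs with a median of 8, and their summed Mrc1 level was 198.1 CPM. They were deep cells, with 24590 to 75576 UMIs, and 81.3% of the 1553 macrophages at or above the lowest of these depths had Mrc1. None of the 15 was in cluster 12. Barcodes with 10 to 100 UMIs held 1 mVenus UMI, a level of 0.292 CPM (0.00740–1.63). Macrophages were at 0.160 CPM (0.0824–0.279), not above that level of free RNA.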

How the results depend on the processing

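No paired analysis was possible because the series has 1 library of each kind and no replicates. Of 571 repeated ratios of single members, 463 stayed within their counting interval, 104 moved outside it without reversing a ratio past the fold, and 4 of those past the fold reversed. The reversed ratios were Marco in the Mrc1 split, 0.863 with at most 5% mitochondrial UMIs, Lyve1 in ZC2 over ZC3, at least 0.960 in cells thinned to 5000 UMIs, and Lyve1 in Ly6c2-positive over Ly6c2-negative macrophages, at most 1.63 in thinned cells and 1.93 with the CD3 and C1q barcodes kept. The values in thinned cells are bounds against 0 UMIs, as are 8 of the 104, and the cause of the others was not tested. The count of members higher in Ly6c2-positive macrophages, 0 in the report, was 1 in thinned cells, with no minimum of UMIs and with the CD3 and C1q barcodes kept; in thinned cells it is the bound for Lyve1. The count for ZC2 over ZC3, 4 in the report, was 2 with the mean of single cells, in thinned cells, without cluster 12 and under relative assignment at 2 times the next barcode. The count for ZC1 over ZC2, 3 in the report, was 5 with no minimum of UMIs and 2 without cluster 12. Macrophages assigned to ZC1 or ZC2 numbered 13 under the fixed rule, 495 under relative assignment, 2 with 100 counts and 4 times the next, and 227 under relative assignment at 2 times the next. Counts under every alternative run were 5 to 6 for macrophages over monocytes, 6 for macrophages over cDC2, 4 to 6 for the Mrc1 split, 4 to 6 for ZC1 over ZC3 and 12 to 15 for co-detected pairs. The alternatives that kept the CD3 and C1q barcodes, left out clusters or changed the monocyte gate were chosen after seeing the data, as was the 2-fold relative rule. Depth limits Cd163, Marco and Lyve1, and free RNA limits low values outside macrophages.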
